A study of Mus musculus with 12 samples.

Results

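The dual-specificity MAP kinase phosphatases were followed in mouse liver during the first hours of hepatitis induced by concanavalin A (ConA), a plant lectin that stimulates T cells. The group was taken as Dusp1, Dusp2, Dusp4, Dusp5, Dusp6, Dusp7, Dusp8, Dusp10, Dusp14 and Dusp16, and its members were all probe sets that the array's annotation assigns to these symbols and to no other gene. This gave 16 probe sets for 10 genes, of 45037 probe sets and 18193 genes on the array. Liver RNA from male Balb/c mice of 8 to 10 weeks was hybridized to 12 Affymetrix mouse arrays, with 3 arrays for a control group (0 h) and 3 for each of the times 1, 3 and 6 h after ConA was given into the tail vein at 20 mg/kg. According to the labels the 0 h mice were untreated, whereas the study's methods describe a PBS injection for controls. The control group used here was at 0 h only, and an effect of ConA cannot be told apart from one of handling or of time of day. All samples were whole liver, so a signal that fell may stand for fewer cells of a type or for less RNA per cell, which cannot be told apart in bulk tissue. The labels do not say which array came from which mouse, and p-values measure only the spread between these arrays.

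These phosphatases take the phosphate off both the threonine and the tyrosine in the activation loop of the MAP kinases ERK, JNK and p38, and thereby switch them off. Dusp1, Dusp2, Dusp4 and Dusp5 are nuclear enzymes whose genes are known to be switched on by the same signals that activate the kinases. Dusp6 and Dusp7 are cytoplasmic and act mainly on ERK, Dusp8, Dusp10 and Dusp16 act mainly on JNK and p38, and Dusp14 is a small enzyme without the domain that docks the others to their kinases.

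The promoters are shown for the members with a match to a site of a factor that MAP kinases act on. The 250 bases before the start of transcription were taken from RefSeq on GRCm38.p6 for 9 of the 10 genes, all but Dusp4, and read on both strands for the cyclic AMP response element (CRE, TGACGTCA), the AP-1 site (TGANTCA), the serum response element (SRE, the CArG box) and the NF-kB site. The 3 genes with a match are printed 5′ to 3′ on the strand of the gene, with the matches in capitals. Dusp1 lies on the minus strand at chr17:26508473-26508722 and holds 1 CRE. Dusp8 lies on the minus strand at chr7:142095285-142095534 and holds 2. Dusp5 lies on the plus strand at chr19:53528895-53529144 and holds 2 SREs side by side.
Dusp1: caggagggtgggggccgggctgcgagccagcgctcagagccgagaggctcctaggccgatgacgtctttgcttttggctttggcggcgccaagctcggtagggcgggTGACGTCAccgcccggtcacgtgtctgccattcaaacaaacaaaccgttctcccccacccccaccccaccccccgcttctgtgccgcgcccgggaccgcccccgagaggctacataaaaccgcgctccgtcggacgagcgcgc
Dusp8: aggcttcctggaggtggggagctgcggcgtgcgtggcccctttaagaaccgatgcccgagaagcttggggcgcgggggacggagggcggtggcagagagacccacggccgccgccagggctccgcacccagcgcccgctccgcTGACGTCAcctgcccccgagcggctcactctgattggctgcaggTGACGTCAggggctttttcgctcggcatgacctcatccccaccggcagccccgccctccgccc
Dusp5: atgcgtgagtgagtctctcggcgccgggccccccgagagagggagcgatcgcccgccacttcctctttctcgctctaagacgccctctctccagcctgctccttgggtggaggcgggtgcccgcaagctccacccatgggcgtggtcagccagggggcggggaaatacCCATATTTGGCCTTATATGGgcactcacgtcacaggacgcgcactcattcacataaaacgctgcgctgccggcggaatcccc
The CRE of Dusp1 lay 143 to 136 bases before the start, those of Dusp8 lay 107 to 100 and 63 to 56 bases before it, and the SREs of Dusp5 lay 82 to 73 and 72 to 63 bases before it. Among 32851 promoters of the same length in the table, 1.55% held at least 1 CRE and 0.0304% held 2 or more, while 1.47% held an SRE and 0.0183% held 2 or more. The matches do not overlap each other. No member had an AP-1 or NF-kB match in this window, against 6.75% and 7.25% of all promoters. The GC content of the members' promoters was 56.4 to 77.2%, beside a median of 52.4% over all promoters. The shares of all promoters were not matched for it. A match is a description of the letters, and no match says only that these letters are not in these bases. Whether a match bears on the signal of its gene was not tested.

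The deposited values were linear signals, which were used as they stood, raised to a floor of 3.04 where lower, and put on the log2 scale. Signals of different probe sets are not comparable as levels, so each was compared only with itself over time, and a gene with several probe sets was represented by the brightest, called the lead. Each array's median signal was between 13.7 and 20.4, and every array correlated with the others of its group at 0.961 to 0.965. The labelled tissue was checked with 6 hepatocyte markers, whose summed signal was 52230 to 60440 on all 12 arrays. Between the groups the median of all genes itself shifted, by -0.21 on the log2 scale from 0 h to 3 h, by -0.31 from 1 h to 3 h and by 0.24 from 3 h to 6 h. For the phosphatases, called differences of these comparisons are also given relative to all genes, which is what is left after taking off that median.

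Over the whole time course 7 of the 10 phosphatase genes changed by the F test of limma (Benjamini-Hochberg adjusted p under 0.05), where 35.4% of all genes did. These were Dusp1, Dusp2, Dusp4, Dusp6, Dusp7, Dusp8 and Dusp10, and they did not follow 1 course. Dusp8 and Dusp2 were higher than at 0 h at all 3 later times, Dusp6 rose at 1 h and fell by 3 h, Dusp4 and Dusp7 fell at 3 h and rose by 6 h, Dusp10 was higher at 3 h and 6 h than at 1 h, and Dusp1 fell from 1 h to 3 h and rose from 3 h to 6 h. The comparisons with 0 h share the 3 control arrays. Against 0 h, 3 genes were higher and none lower at 1 h, where 1.45% of all genes were higher and 0.148% lower. At 3 h 2 genes were higher and 2 lower, where 4.76% of all genes were higher and 12.9% lower. At 6 h 2 genes were higher and none lower, where 14.4% of all genes were higher and 11.8% lower. The median log2 difference of the 10 genes from 0 h was 0.71 at 1 h, 0.19 at 3 h and 0.48 at 6 h, beside 0.08, -0.21 and 0.02 over all genes.

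**Figure D1:**
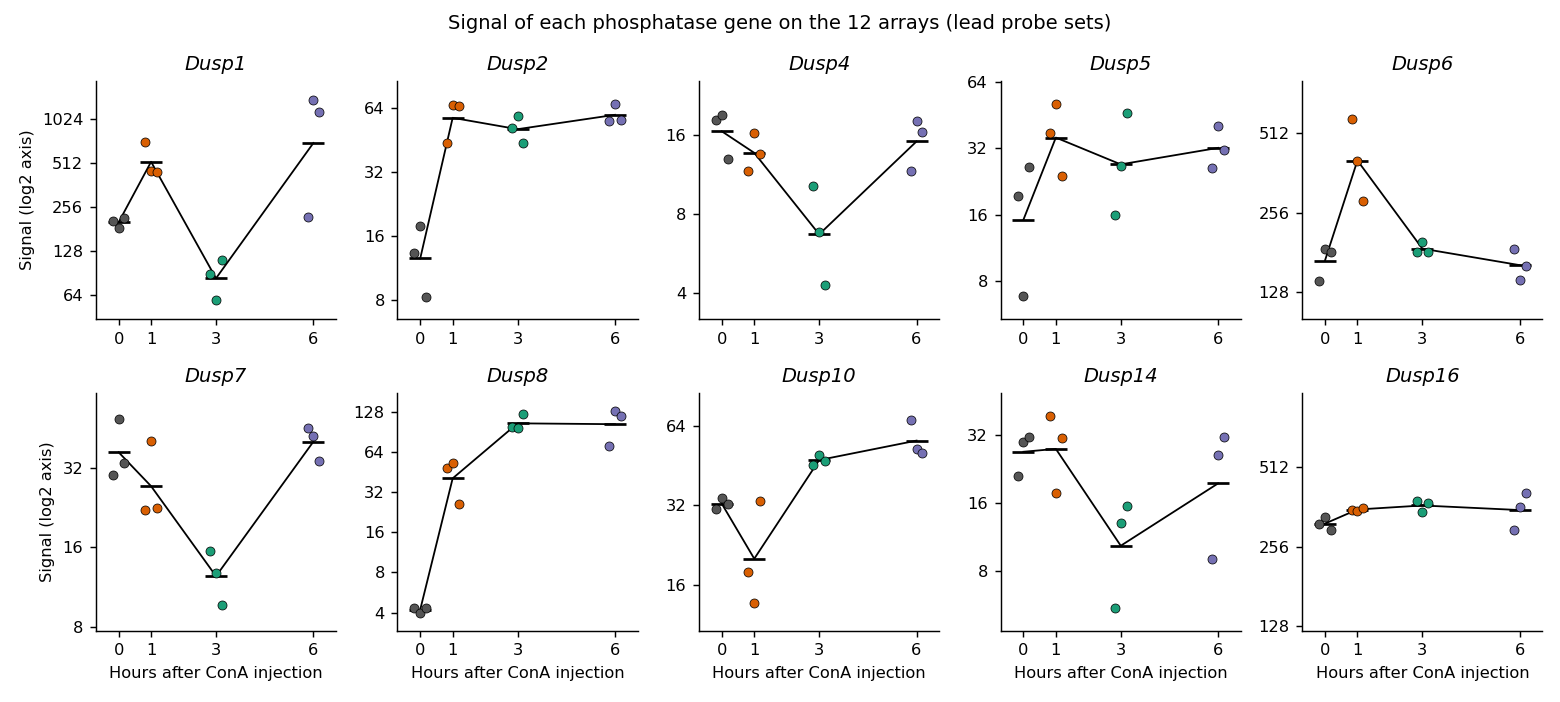
Signal of the lead probe set of each phosphatase gene (log2 axis, arbitrary units) against hours after ConA injection. Each point is 1 array, bars and lines join the group means of log2 signal, and no signal shown lay under the floor. Dusp8 and Dusp2 were above all control arrays at every later time, the 1 h arrays of Dusp6 were above all others, and 1 array of the 6 h group stood apart for Dusp1.

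Of the nuclear enzymes, Dusp1, whose promoter holds the single CRE printed above, is the classical immediate-early phosphatase that acts on p38 and JNK as well as ERK. Its signal was 206, 183 and 214 in the control group, 711, 450 and 442 after 1 h, 88.3, 58.5 and 110 after 3 h, and 218, 1385 and 1140 after 6 h. All 3 arrays were above the control arrays at 1 h, all 3 were below them at 3 h, and all 3 were above them at 6 h, with replicate 1 of the 6 h group only just so. None of the differences from 0 h passed the test: the log2 difference was 1.38 at 1 h (95% interval -0.001 to 2.76, adjusted p = 0.430), -1.27 at 3 h (-2.65 to 0.11, adjusted p = 0.223) and 1.81 at 6 h (0.43 to 3.19, adjusted p = 0.070). Among the alternatives, the difference at 3 h passed with only the compared groups in the fit (adjusted p = 0.049). That at 6 h passed among the probe sets brighter than the median (adjusted p = 0.022). The steps from 1 h to 3 h and from 3 h to 6 h passed the test. From 1 h to 3 h Dusp1 fell by 2.65 (log2 units, SE 0.61, adjusted p = 0.021), or 6.29-fold, and by 2.35 relative to all genes. This fall had an adjusted p of 0.054 with quantile normalization between arrays, of 0.077 without replicate 1 of the 1 h group, and of 0.051 and 0.069 without replicates 1 and 2 of the 3 h group. From 3 h to 6 h it rose by 3.08 (SE 0.61, adjusted p = 0.010), or 8.46-fold, and by 2.84 relative to all genes, and this rise had an adjusted p of 0.077 with only the compared groups in the fit.

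A single array held most of the spread of Dusp1. In the 6 h group the SD of log2 signal was 1.47, against 0.12 in the control group, 0.39 at 1 h and 0.46 at 3 h. Without replicate 1 of the 6 h group, the log2 difference from 0 h at 6 h was 2.65 (SE 0.29, adjusted p = 7.8e-04) and that at 3 h was -1.27 with an adjusted p of 0.018, and both then passed, while at 1 h the adjusted p was 0.051. The rise from 3 h to 6 h was then 3.92 (adjusted p = 0.0010), and 6 h lay 1.27 above 1 h (adjusted p = 0.025), which with all arrays was 0.43 (adjusted p = 0.729). This array did not stand apart over all genes: it correlated with the other arrays of its group at 0.9625 and 0.9628, and 84 genes were at least 2 log2 units below both of them and 48 above, where the other 11 arrays had 37 to 88 and 25 to 104. The 3 genes most like Dusp1 over the 12 arrays were Tmem41a (Pearson's r = 0.97), Slc45a3 (0.96) and Vgll4 (0.94). At 6 h Tmem41a had signals of 139, 264 and 268, and Slc45a3 had 156, 527 and 423. These genes were chosen by their correlation over the same arrays, so a low array in common is part of the choice.

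Dusp2, a nuclear enzyme best known from activated lymphocytes and macrophages, had signals of 13.3, 17.9 and 8.32 in the control group, 43.6, 66.0 and 65.3 after 1 h, 51.3, 58.1 and 43.6 after 3 h, and 55.6, 66.8 and 55.7 after 6 h. Every array after ConA was above every control array. Dusp2 was higher by 2.19 log2 units at 1 h (SE 0.27, adjusted p = 0.0046), by 2.01 at 3 h (adjusted p = 0.0017), or 2.23 relative to all genes, and by 2.24 at 6 h (adjusted p = 5.0e-04), which are 4.57-fold, 4.04-fold and 4.71-fold. No difference between the later times passed, and the 95% interval of the difference between 6 h and 1 h was -0.57 to 0.66. The 3 genes most like it were Fosl2 (r = 0.96), which encodes an AP-1 subunit, Sbno2 (0.96) and Cxcl1 (0.96), a chemokine that attracts neutrophils. Fosl2, for example, had signals of 10.4 to 24.4 in the control group and 99.1 to 195 on the 9 later arrays, a likeness that is part of the choice by r.

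Dusp4, a nuclear phosphatase induced by ERK, had signals of 18.2, 19.0 and 12.9 in the control group, 11.6, 16.2 and 13.5 after 1 h, 10.2, 6.86 and 4.29 after 3 h, and 11.6, 18.0 and 16.4 after 6 h. Only the 3 h arrays lay below all others. Dusp4 fell by 1.30 log2 units from 0 h to 3 h (SE 0.32, adjusted p = 0.026) and by 1.08 relative to all genes, and it rose by 1.17 from 3 h to 6 h (adjusted p = 0.034) and by 0.93 relative to all genes. The fall no longer passed without 1 of 4 arrays, replicates 1 and 2 of the control group and 2 and 3 of the 3 h group (adjusted p = 0.066 to 0.089), nor with only the compared groups in the fit (adjusted p = 0.105). The rise had an adjusted p of 0.095 with quantile normalization, 0.094 with centred array medians and 0.12 with only the compared groups, and it was lost without 1 of 4 arrays, replicates 2 and 3 of both the 3 h and the 6 h group (up to adjusted p = 0.113). Genes most like it were Cd320 (r = 0.96), Gsk3b (0.94) and Lmnb1 (0.92).

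Dusp5, the nuclear phosphatase specific to ERK and the gene with the paired SREs printed above, had signals of 19.5, 6.81 and 26.2 in the control group, 37.7, 50.9 and 23.9 after 1 h, 16, 26.6 and 46.5 after 3 h, and 26.1, 40.4 and 31.5 after 6 h. The control arrays were spread from 6.81 to 26.2 and the groups overlapped at every time. The log2 difference of 1.24 at 1 h had a 95% interval from -0.003 to 2.48 (adjusted p = 0.430), and the F test gave an adjusted p of 0.329.

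Of the cytoplasmic enzymes, Dusp6, which ERK signalling induces and which turns ERK off, had signals of 141, 187 and 182 in the control group, 580, 402 and 283 after 1 h, 182, 199 and 181 after 3 h, and 186, 142 and 161 after 6 h. The 3 arrays at 1 h lay above all 9 others. Dusp6 was higher at 1 h by 1.26 log2 units (SE 0.24, adjusted p = 0.037), or 2.39-fold. It then fell by 1.11 from 1 h to 3 h (adjusted p = 0.016), or 0.80 relative to all genes, and was 1.32 lower at 6 h than at 1 h (adjusted p = 0.0051). At 6 h the log2 difference from 0 h was -0.06, with a 95% interval from -0.59 to 0.48. The rise at 1 h sat close to the threshold: without any 1 of 11 arrays the adjusted p was 0.053 to 0.115, and without replicate 3 of the 1 h group it was 0.0096. It was also lost with centred array medians (adjusted p = 0.054), with the replicate number as a block (0.081) and with only the compared groups in the fit (0.243). The fall from 1 h to 3 h had an adjusted p of 0.054 with quantile normalization, 0.102 with centred array medians, 0.081 with only the compared groups and 0.053 without replicate 3 of the 3 h group. The genes most like Dusp6 were Txnrd2 (r = 0.91), Ttpa (0.88), the liver's vitamin E transfer protein, and Zfp46 (0.88). Each was likewise highest on the 3 arrays at 1 h, and Zfp46, for example, had 216 to 313 there and 56.1 to 99.1 on the 9 others. As they were chosen by their correlation over the same arrays, this shared course is part of the choice.

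Dusp7, the other cytoplasmic phosphatase of ERK, was measured by 3 probe sets that did not follow 1 course. The lead, 1427416_x_at, had signals of 30.0, 49.2 and 33.4 in the control group, 22.2, 40.4 and 22.6 after 1 h, 15.5, 12.8 and 9.67 after 3 h, and 45.5, 42.2 and 33.9 after 6 h. It was lowest on the 3 arrays at 3 h. It fell by 1.56 log2 units from 0 h to 3 h (SE 0.29, adjusted p = 0.0079), or 2.95-fold, and by 1.34 relative to all genes, and rose by 1.69 from 3 h to 6 h (adjusted p = 0.0053), or by 1.45 relative to all genes. Both passed under every alternative tried. The lead also fell by 1.13 from 1 h to 3 h (adjusted p = 0.031), with a difference of -0.825 relative to all genes. This fall did not pass with quantile normalization (adjusted p = 0.140), with centred array medians or with only the compared groups in the fit. It was also lost without 1 of 4 arrays, replicates 1 and 2 of the 1 h group and 2 and 3 of the 3 h group (adjusted p = 0.051 to 0.102). The second, 1452097_a_at, was 17.9 to 48.5 in the control group, 5.92 to 13.5 at 1 h, 3.76 to 5.14 at 3 h, and 2.49, 25.4 and 2.92 at 6 h, where 2 arrays were under the floor. It was low at 3 h like the lead (-2.74, or -2.52 relative to all genes, adjusted p = 0.047), but on 2 of 3 arrays it did not return at 6 h, and its call at 3 h was lost without any 1 of the 9 arrays of the control, 1 h and 3 h groups (up to adjusted p = 0.144). The third, 1460393_a_at, was 11.3 to 19.3 in the control group, 9.0 to 15.0 at 1 h, 10.7 to 13.2 at 3 h and 18.4 to 29.6 at 6 h. It did not pass at 3 h (-0.45, adjusted p = 0.352) and rose by 1.04 from 3 h to 6 h (adjusted p = 0.030), or by 0.80 relative to all genes. This rise did not pass with quantile normalization (adjusted p = 0.124), nor without any array of the 3 h group or replicate 2 or 3 of the 6 h group (up to adjusted p = 0.107). On the array, an ending of _x_at or _s_at marks probes that may also match other transcripts, and _a_at marks probes shared by transcripts of the gene. Pearson's r of the lead with the others over the 12 arrays was 0.42 and 0.60. The genes most like the lead were Plbd2 (0.93), Trappc6b (0.93) and Cmip (0.92), and among the members Dusp4 was nearest, with r = 0.87 between the leads of both genes.

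Some markers of cells of the liver sinusoid were lower too at 3 h, when Dusp4 and Dusp7 were low. The summed signal of 6 Kupffer cell markers was 1105 to 1495 in the control group, 810 to 913 at 3 h and 721 to 1014 at 6 h, with 2 of them lower at 3 h. Marco and Timd4 of this list had positive differences at 3 h, 1.74 and 0.21, which did not pass (adjusted p = 0.070 and 0.723). At 6 h 2 Kupffer cell markers were lower and 1 was higher, Marco (3.77, adjusted p = 0.0013, with 5 arrays under the floor). The summed signal of 6 hepatic stellate cell markers was 1428 to 2144 in the control group, 892 to 1048 at 3 h and 735 to 748 at 6 h, with 3 lower at 3 h. Ngfr and Des of this list had positive differences at 3 h, 1.87 and 0.62, which did not pass (adjusted p = 0.108 and 0.417). The summed signal of 7 sinusoidal endothelial markers was 1054 to 2350 in the control group and 1357 to 1515 at 3 h, with 1 lower, and of 4 monocyte markers 1 was lower at 3 h. Fcgr2b and Lyve1 of the endothelial list had positive differences at 3 h, 0.35 and 0.26, which did not pass (adjusted p = 0.557 and 0.712). Of all genes 12.9% were lower at 3 h. From 3 h to 6 h, when Dusp4 and Dusp7 rose, these sums did not move alike. The stellate cell sum was lower on every 6 h array than on every 3 h array. The endothelial sum was 1478 to 1620 at 6 h, overlapping that at 3 h. Against 0 h, 3 endothelial markers were lower at 6 h and 2 were higher, Pecam1 and Lyve1 (1.06 and 1.23, adjusted p = 0.0037 and 0.032). The part of these cells in the falls at 3 h and in the rises to 6 h was not tested.

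**Figure D2:**
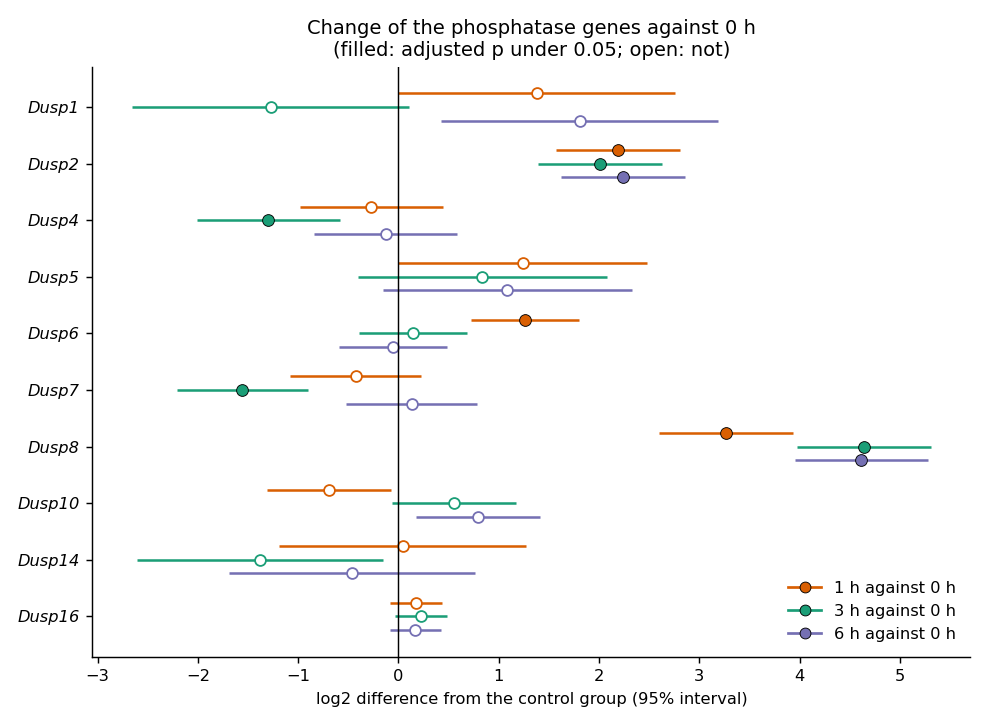
Difference of each phosphatase gene from the control group after 1, 3 and 6 h (log2 units, lead probe set, 3 arrays a group), with 95% intervals of the limma fit. Filled points had an adjusted p under 0.05. Dusp8 lay 3.27 to 4.64 above 0 h and Dusp2 2.01 to 2.24 above it, Dusp4 and Dusp7 were below 0 h at 3 h, and the intervals of Dusp1 and Dusp5 were wide.

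Of the enzymes directed at JNK and p38, Dusp8 had larger log2 differences from 0 h than any other member at each time, and its promoter holds the 2 CREs printed above. Its lead probe set, 1428864_at, had signals of 4.31, 3.99 and 4.32 in the control group, 48.2, 53.1 and 26.0 after 1 h, 97.7, 96.3 and 122 after 3 h, and 71.0, 130 and 119 after 6 h. The control arrays were close to the floor and to each other, and the next lowest array was 26.0. Dusp8 was higher at 1 h by 3.27 log2 units (SE 0.30, adjusted p = 7.1e-04), at 3 h by 4.64 (adjusted p = 2.6e-05), or 4.85 relative to all genes, and at 6 h by 4.62 (adjusted p = 1.7e-05), which are 9.64-fold, 24.9-fold and 24.5-fold. It rose further by 1.37 from 1 h to 3 h (adjusted p = 0.017) and by 1.68 relative to all genes, a call that was lost without replicate 3 of the 3 h group (adjusted p = 0.060). The 95% interval of the difference between 6 h and 3 h was -0.69 to 0.65. The rises above 0 h passed under every alternative tried.

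A second probe set of Dusp8 moved likewise, and the remaining one, which was near the floor, passed no comparison. With 1418714_at the signals were 1.38, 4.18 and 7.77 in the control group, 34.6, 9.12 and 10.8 after 1 h, 23.9, 29.9 and 42.1 after 3 h, and 21.3, 43.7 and 49.8 after 6 h. All later arrays were above the control arrays, 1 of which was under the floor, so that its folds depend on the floor. It was higher by 2.75 log2 units at 3 h (SE 0.57, adjusted p = 0.013), or 2.96 relative to all genes, and by 2.96 at 6 h (adjusted p = 0.0054), and by 1.70 at 1 h with an adjusted p of 0.254. Without replicate 1 of the control group the adjusted p at 3 h was 0.050, which did not pass. Its r with the lead was 0.905 over 12 arrays, of which the difference between the groups is a part. With 1447346_s_at no signal was above 17.9 and no comparison with 0 h passed (adjusted p = 0.798, 0.111 and 0.744 after 1, 3 and 6 h).

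The 3 genes most like Dusp8 were S100a9 (r = 0.99), Crp (0.99) and S100a8 (0.99). S100a8 and S100a9 encode a calcium-binding pair abundant in neutrophils, and Crp is an acute-phase protein of hepatocytes. S100a9 had signals of 20.9 to 25.4 in the control group, 317 to 496 at 1 h, 613 to 947 at 3 h and 535 to 923 at 6 h. Crp had 3079 to 3205 in the control group, 5269 to 6571 at 1 h, 7379 to 7732 at 3 h and 7795 to 8540 at 6 h. The course that these genes share with Dusp8 is part of their choice by r. Of 7 neutrophil markers 4 were higher than in the control group after 1 h, 6 after 3 h and 7 after 6 h, and their summed signal was 83.4 to 129 in the control group, 823 to 1161 at 1 h, 1500 to 2151 at 3 h and 1634 to 2557 at 6 h. Of 7 T cell markers none was called at 1 h or 3 h and 3 were higher at 6 h (Cd3g, Cd2 and Cd5), with sums of 56.8 to 67.1 in the control group, 85.0 to 111 at 1 h, 75.4 to 94.8 at 3 h and 110 to 158 at 6 h. Of 3 B cell markers none was called against 0 h at any time. None of the neutrophil and T cell markers lay under the floor on every array of a group but for 1 T cell marker at 1 h and at 3 h. The part of these cells in the rises of Dusp8 and Dusp2, whose leads had r = 0.88 with each other, was not tested.

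Dusp10, which prefers JNK and p38, had signals with its lead 1417164_at of 30.9, 34.1 and 32.4 in the control group, 17.9, 13.6 and 33.2 after 1 h, 45.6, 49.8 and 47.2 after 3 h, and 67.3, 52.3 and 50.7 after 6 h. The 3 h and 6 h arrays were above all control arrays, and 2 of 3 arrays at 1 h were below them. It rose by 1.24 log2 units from 1 h to 3 h (SE 0.27, adjusted p = 0.018), or 2.37-fold, and by 1.55 relative to all genes, and was 1.49 higher at 6 h than at 1 h (adjusted p = 0.0057). The rise to 3 h was lost without replicate 1 of the 1 h group (adjusted p = 0.065) or replicate 2 or 3 of the 3 h group (both 0.054). Against 0 h it did not pass, with -0.69 after 1 h (adjusted p = 0.359), 0.55 after 3 h (adjusted p = 0.242) and 0.80 after 6 h (adjusted p = 0.074). Replicate 3 was the high array of the 1 h group, and without it the difference from 0 h at 1 h was -1.05 (adjusted p = 0.018). Those at 3 h and 6 h then passed too (adjusted p = 0.036 and 0.0048). With the other probe set, 1417163_at, the signals were 6.47 to 14.2 in the control group, 12.6 to 16.2 at 1 h, 14 to 27.7 at 3 h and 16 to 34.8 at 6 h, and it showed no dip at 1 h (0.48, adjusted p = 0.705). It was 1.21 above 0 h at 6 h (adjusted p = 0.058), and its r with the lead was 0.415. Bid (0.89), a death-promoting member of the Bcl family, Nos1ap (0.88) and Adamts9 (0.87) were most like the lead. Dusp6 and Dusp10 ran most nearly opposite among the 10 leads, with r = -0.77.

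Dusp16, which acts on JNK in nucleus and cytoplasm, had signals with its lead 1418401_a_at of 312, 332 and 297 in the control group, 353, 350 and 360 after 1 h, 381, 347 and 374 after 3 h, and 296, 363 and 408 after 6 h. Its log2 differences from 0 h were 0.18, 0.23 and 0.17, none passed, and the 95% interval at 3 h was -0.03 to 0.48. The other probe set, 1440615_at, had signals of 15.0, 16.5 and 15.1 in the control group, 43.1, 30.8 and 28.8 after 1 h, 17.7, 11.8 and 23.7 after 3 h, and 16.8, 25.4 and 19.5 after 6 h. It was highest on the 3 arrays at 1 h, where the log2 difference of 1.12 from 0 h did not pass (adjusted p = 0.087), and its fall by 0.98 from 1 h to 3 h did (adjusted p = 0.037), or by 0.67 relative to all genes. This call was lost with quantile normalization (adjusted p = 0.194) and without any 1 of 8 arrays (up to adjusted p = 0.124). The r between both probe sets was 0.376.

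Dusp14, the small phosphatase, had signals of 21.1, 29.7 and 31.2 in the control group, 38.8, 17.7 and 31.1 after 1 h, 5.53, 13.0 and 15.5 after 3 h, and 9.10, 26.2 and 31.3 after 6 h. The 3 h arrays lay below all control arrays, and the 6 h group was spread. Its log2 difference at 3 h was -1.38 (SE 0.54, adjusted p = 0.138), or -1.17 relative to all genes, and it passed no test.

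**Figure D3:**
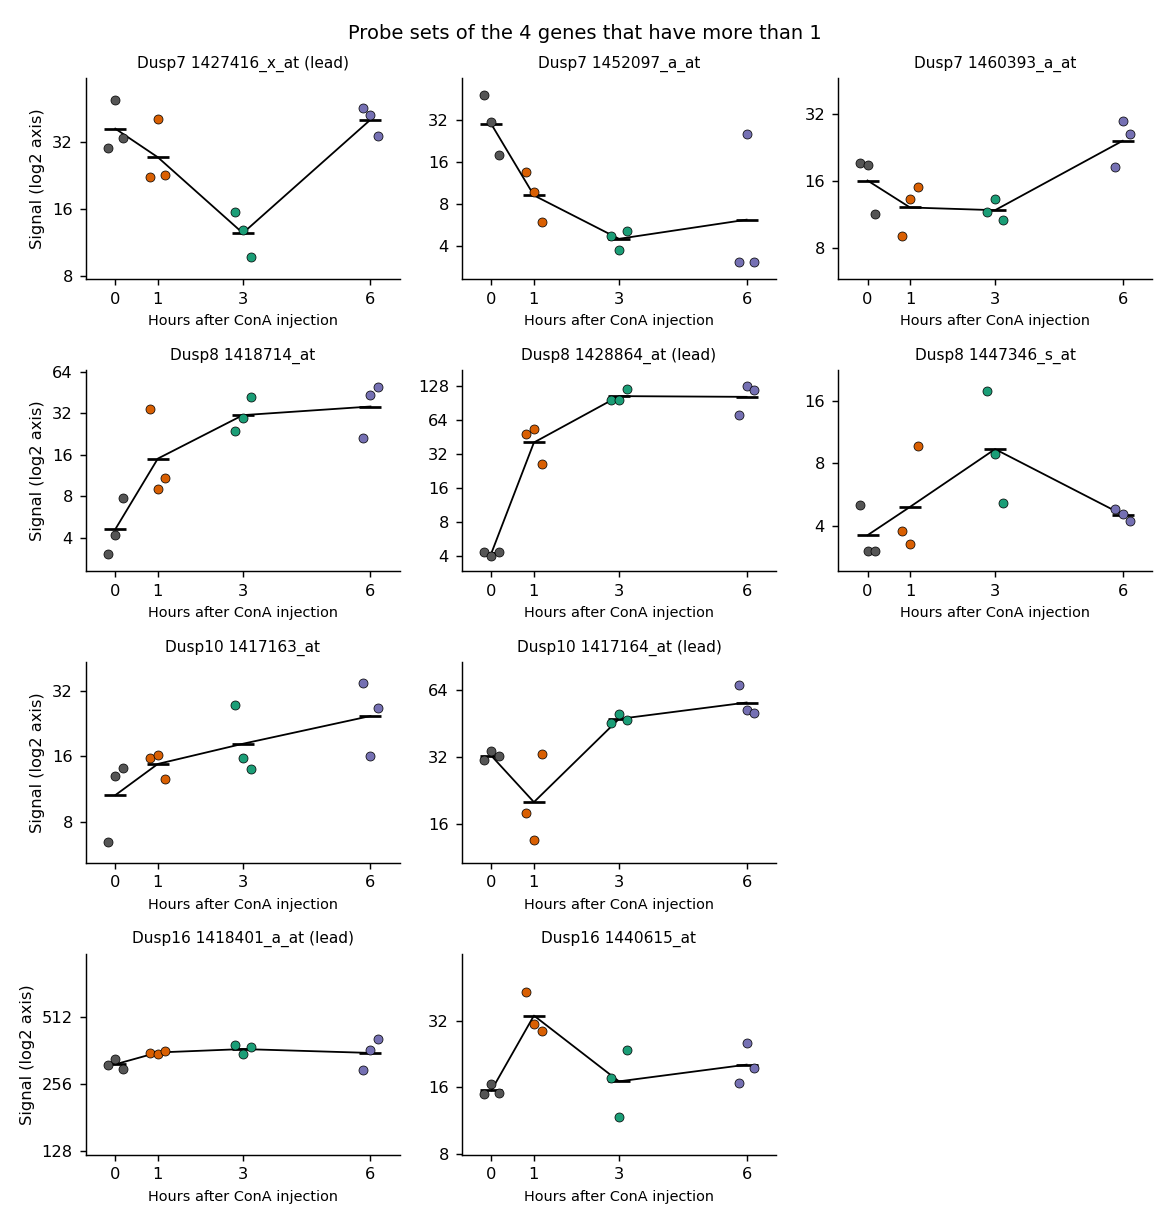
Signals of all probe sets of Dusp7, Dusp8, Dusp10 and Dusp16 (log2 axis, arbitrary units) against hours after ConA injection. Points are arrays, bars and lines join group means of log2 signal, and signals under the floor of 3.04 are drawn at it. The lead and 1418714_at of Dusp8 both rose, while the probe sets of Dusp7, Dusp10 and Dusp16 differed in course.

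Between successive times, 3 h stood above 1 h for 2 of the 10 genes and below it for 3, where 2.73% of all genes were higher and 16.7% lower. From 3 h to 6 h 3 were higher and none lower, where 17.3% of all genes were higher and 3.55% lower. At 6 h against 1 h 2 were higher and 1 lower, beside 9.83% and 12.8% of all genes. The median difference of the members was -0.72 from 1 h to 3 h and 0.25 from 3 h to 6 h, and over all genes it was -0.31 and 0.24.

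The rest of the pathway was read from 8 lists with 86 measured genes, of which 10 were above 0 h and none below it at 1 h, 12 above and 12 below at 3 h, and 21 above and 13 below at 6 h. The genes above 0 h were 11.6%, 14% and 24.4% of them, where all genes gave 1.45%, 4.76% and 14.4%. Those below it after 3 h and 6 h were 14% and 15.1%, near the 12.9% and 11.8% of all genes. Most of the genes above 0 h came from 1 list, the 18 transcription factors that act after the MAP kinases. This list held 8 of the 10 at 1 h, 9 of the 12 at 3 h and 12 of the 21 at 6 h. Its 1 gene lower at 3 h and at 6 h was Elk3, a partner of the serum response factor (-2.31 and -1.88, adjusted p = 0.0027 and 0.0043). Fos, a subunit of AP-1, was higher by 6.00 on the log2 scale at 1 h (adjusted p = 3.7e-04), Egr1 by 4.74 (adjusted p = 6.1e-04) and Egr3 by 4.35 (adjusted p = 5.1e-04, with 2 arrays under the floor, so that its size depends on the floor), and all 3 were higher at 6 h too, by 3.78, 2.97 and 2.02. Atf3, a stress-induced factor, was higher by 3.71, 5.51 and 4.59 at the 3 times (adjusted p = 0.014, 3.9e-04 and 5.5e-04). The median difference of this list from 0 h was 1.31, 1.81 and 1.71, beside 0.08, -0.21 and 0.02 over all genes.

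Of 11 MAP kinases, 1 was higher at 1 h, the atypical Mapk4 (0.97, adjusted p = 0.015, dim, with 5 of 12 arrays under the floor, and an adjusted p of 0.30 with a pseudocount of 1 in place of the floor). At 3 h 1 was lower, again Mapk4 (-0.74, adjusted p = 0.013), a size that depends on the floor. At 6 h Mapk6 was higher (0.52, adjusted p = 0.018) while Mapk4, Mapk9, which encodes a JNK, and Mapk15 were lower. Of 6 MAP kinase kinases none was higher than at 0 h at any time, 1 was lower at 3 h and 3 at 6 h. Map2k6, which activates p38, fell by 1.79 on the log2 scale at 3 h (adjusted p = 0.0011) and by 3.83 at 6 h (adjusted p = 1.1e-05), and Map2k3 (-0.45, adjusted p = 0.023) and Map2k5 (-0.64, adjusted p = 0.014) were the others lower at 6 h. Of 13 kinases a step further up, Map3k8, which activates ERK downstream of inflammatory receptors, was higher by 2.54 after 1 h (adjusted p = 0.0011), 2.81 after 3 h (adjusted p = 1.7e-04) and 2.28 after 6 h (adjusted p = 2.7e-04), and it was the only one called at 1 h. Map3k5 was higher at 3 h (0.87, adjusted p = 0.012) and Map3k14, a kinase of the noncanonical NF-kB pathway, at 6 h (1.18, adjusted p = 0.0013). Lower at 3 h were Map3k2 (-0.60, adjusted p = 0.0082), Map3k4 (-0.62, adjusted p = 0.040, and 0.191 with quantile normalization) and Araf (-0.41, adjusted p = 0.018), and Map3k2 was lower at 6 h too (-0.40, adjusted p = 0.032). Of 8 kinases that MAP kinases activate, none passed at 1 h. At 3 h 1 was lower, Mknk2 (-0.99, adjusted p = 0.024), and at 6 h 4 were higher and 2 lower. Among the higher ones were Rps6ka3 (0.885, adjusted p = 0.013) and Mapkapk2, the main kinase after p38 (0.68, adjusted p = 0.0081). Mknk2 (-0.81, adjusted p = 0.040) and Rps6ka5 (-1.36, adjusted p = 0.0099) were the lower ones.

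Of 8 other phosphatases of MAP kinases none passed at 1 h or 3 h, and at 6 h Ppp2cb, a catalytic subunit of protein phosphatase PP2A, was higher (0.90, adjusted p = 4.9e-04) and Ppm1a and Ppm1b were lower (-0.54 and -0.50, adjusted p = 0.027 and 0.011). Of 14 atypical dual-specificity phosphatases none was higher at any time and 4 were lower at 3 h, namely Dusp3 (-0.83, adjusted p = 0.0024), Styx (-0.78, adjusted p = 0.0066), Dusp22 (-0.62, adjusted p = 0.0050) and Dusp12 (-0.57, adjusted p = 0.039). The median of this list at 3 h was -0.30, beside -0.21 over all genes. At 3 h Dusp12 and Dusp22 no longer passed with quantile normalization (adjusted p = 0.067 and 0.064), and Dusp12 was lost without any 1 of 7 of the 12 arrays (up to adjusted p = 0.126). At 6 h 1 gene of this list was lower, Dusp12 (-0.54, adjusted p = 0.033). That call was lost without any 1 of 4 arrays (up to adjusted p = 0.108). Of 8 other inhibitors of ERK signalling, Spred1 was higher at 3 h (1.35, adjusted p = 0.0046) and 6 h (1.58, adjusted p = 0.0011), and Spry1 was lower at 3 h (-0.73, adjusted p = 0.048, and 0.081 with quantile normalization).

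**Figure D4:**
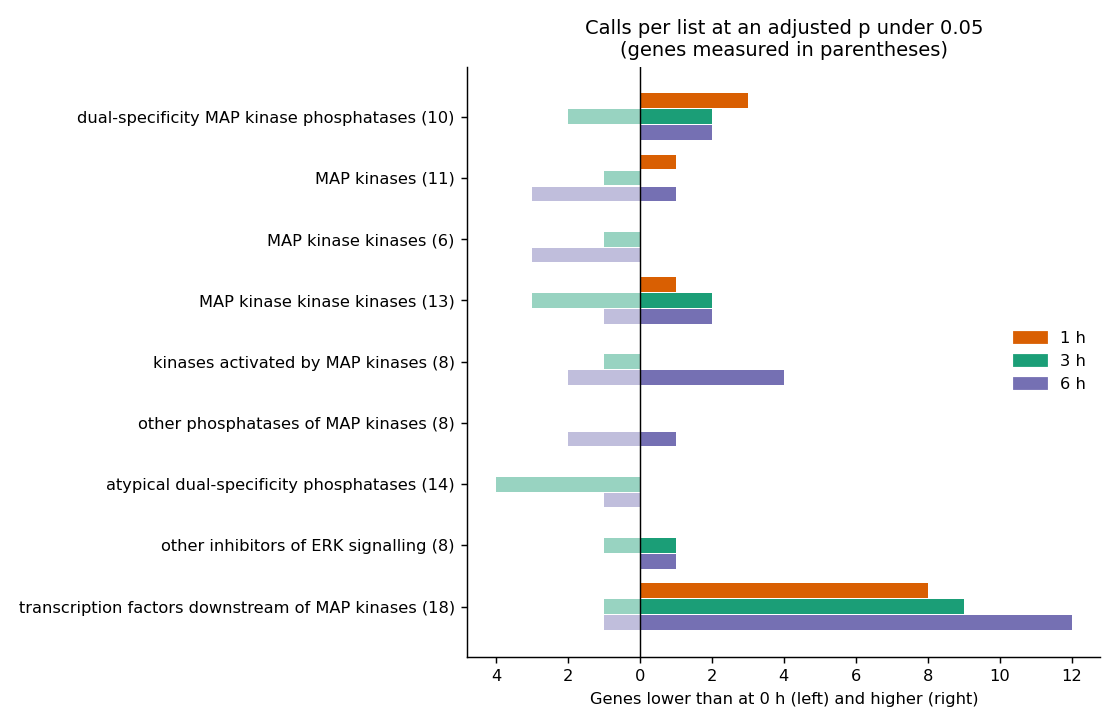
Number of genes higher (right) and lower (left, paler) than at 0 h at an adjusted p under 0.05, by list and time, with the number of genes measured in parentheses. The transcription factors had the most calls at each time, and the phosphatases had 3 genes higher at 1 h.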

How the data were processed

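RNA of whole mouse liver was measured on 12 arrays, 3 a group. The authors deposited linear signal intensities of 45101 probe sets. The labels name MAS5 version 5.0, whereas the study's methods name RMA, and the distributions differed between arrays. No detection calls were used here, and the number of arrays limits the precision.

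The 20th percentile of the table (3.04) was the floor, 64 control probe sets were left out, and 34945 of 45037 carried 1 symbol, 932 several and 9160 none. Symbols were updated through the Entrez ID for 34741. limma 3.58.1 in R 4.3.3 fitted 4 group means, and Benjamini-Hochberg adjustment ran over all 45037 probe sets for each comparison. The fit was tested on simulated data. Likeness was Pearson's r of log2 signal over 12 arrays, among 5252 genes past the F test and brighter than the median gene, and the 3 highest are named. From each pathway list up to 4 genes were picked to be named, those past the threshold with the largest differences from 0 h. Elk3, Map3k2 and Araf, which were lower, are named besides these, and every member is named. Members and lists were chosen with earlier results of these data known. Some genes of the pathway lists were not analysed here.

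The alternatives were quantile normalization, centred array medians, a pseudocount of 1 without a floor, the probe sets brighter than the median, an intensity trend, a replicate block, only the groups compared, 1 probe set a gene, and leaving out each array. Those for 6 h against 1 h and for the pathway lists were added after seeing the data. Replicate numbers were not taken to pair arrays, since deviations from the group means correlated at -0.011 to 0.038 in the 18 pairs that share a number and at -0.036 to 0.029 in the 36 that do not.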

Additional observations from a re-analysis of the deposited data

How the results depend on the processing

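No direction of a called result turned under any alternative. With only the groups compared in the fit, the phosphatase genes higher at 1 h than at 0 h numbered 1 in place of 3, those higher at 3 h than at 1 h numbered 0 in place of 2 and those lower 1 in place of 3, those higher at 6 h than at 3 h numbered 1 in place of 3, and at 6 h against 1 h 0 were higher in place of 2 and 0 lower in place of 1. That fit has fewer arrays. Dusp2 at 1 h then had an adjusted p of 0.117, and the step from 1 h to 3 h had one of 0.068 for Dusp8 and 0.101 for the leads of Dusp7 and of Dusp10. The lead of Dusp4 is dimmer than the median, so it was not tested among the brighter probe sets, and the counts of that setting leave it out. There 1 gene was lower at 3 h than at 0 h in place of 2 and 4 were higher at 6 h in place of 2. With quantile normalization 0 genes were lower at 3 h than at 1 h in place of 3, and with centred array medians 1. Those scalings moved the median of all genes at that step from -0.31 to -0.03 and 0.03. The 7 genes past the F test were 6 to 7 under every alternative but the fit of only the groups compared, for which the F test was not run.

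Leaving out each array in turn gave 2 to 3 phosphatase genes higher and 0 to 1 lower at 1 h (1 without replicate 3 of the 1 h group), 2 to 3 higher and 1 to 3 lower at 3 h, and 2 to 3 higher and 0 lower at 6 h, all against 0 h. The genes lower at 3 h were 1 without replicate 1 or 2 of the control group or replicate 2 or 3 of the 3 h group. At 3 h against 1 h 0 to 2 were higher and 1 to 3 lower, with 0 higher and 1 lower without replicate 3 of the 3 h group and 1 and 1 without its replicate 2 or replicate 1 of the 1 h group. At 6 h 2 to 3 were higher and 0 lower than at 3 h, and 2 to 3 higher and 1 lower than at 1 h. Where a group was left with 2 arrays, they shared the spread of the other groups.

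With the replicate block 2 phosphatase genes were higher at 1 h, since Dusp6 then had an adjusted p of 0.081 with the same log2 difference of 1.26, and 6 genes passed the F test. It changed 2 more calls of phosphatase probe sets, those of the second probe sets of Dusp7 at 3 h (adjusted p = 0.057) and of Dusp16 from 1 h to 3 h (adjusted p = 0.067).

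Of the 86 pathway genes, 4 were higher at 1 h in place of 10 and 7 lower at 6 h in place of 13 with only the groups compared, 7 and 4 were lower at 3 h in place of 12 with quantile normalization and centred medians, and 6 were lower at 6 h with a pseudocount of 1. Leaving out each array gave 8 to 11 higher and 0 lower at 1 h, 11 to 14 higher and 8 to 12 lower at 3 h, and 18 to 23 higher and 6 to 13 lower at 6 h, with 6 lower without replicate 1 or 3 of the 6 h group and 7 without replicate 1 or 2 of the control group. Signals near the floor, as of Dusp8 in the control group, limit the size of its fold.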
